A study of Mus musculus with 26 samples.

Results

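The suppressors of cytokine signalling (SOCS) are a family of 8 genes in the mouse, Socs1 to Socs7 and Cish. Their chromatin was followed in the mouse macrophage line RAW264.7 through the ChIP-seq regions assigned to each gene. A region was assigned where it overlapped the RefSeq span of a gene plus 1 kb on either side. Intergenic HA and H3K27ac regions within 50 kb were added where the SOCS gene was the nearest of 49943 genes. This gave 67 regions of 166353 in all, namely 22 of 42505 for HA, 12 of 46133 for RNA polymerase II (Pol II) and 33 of 77715 for acetylated histone H3 lysine 27 (H3K27ac), a mark of active promoters and enhancers. The 43 regions over a gene and 24 near one are named by gene, target and a number that runs along the chromosome.

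The cells were stable lines with doxycycline-inducible expression of HA-tagged Nur77, the orphan nuclear receptor encoded by Nr4a1, or of GFP, with 1 line per construct. Every group, GFP controls included, received 50 ng/ml doxycycline for 18 h. Cells then had lipopolysaccharide (LPS, the bacterial ligand of Toll-like receptor 4) at 500 ng/ml for 1 h or stayed untreated. HA ChIP was made in the Nur77 line only, with 3 LPS and 3 untreated libraries, so that it has no counterpart in GFP cells and reports the induced, tagged protein and not the endogenous one. Pol II and H3K27ac were each measured in 2 libraries of Nur77 LPS, Nur77 untreated, GFP LPS and GFP untreated cells, and each of these 4 groups had 1 input library.

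SOCS proteins are feedback inhibitors of cytokine receptors that signal through Janus kinases (JAK) and STAT transcription factors. Each has an SH2 domain, which binds phosphorylated tyrosines, and a C-terminal SOCS box, which recruits elongin B, elongin C and cullin 5 to form a ubiquitin ligase. CISH, SOCS1, SOCS2 and SOCS3 are best known as genes that cytokines switch on through STATs, and in macrophages SOCS1 and SOCS3 are known brakes on interferon and interleukin-6 signalling.

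The promoters of Cish and Socs3 are shown because Cish had the largest Pol II response of the family, because the only HA region of the family called with LPS lies near Socs3, and because STAT sites near the start are the textbook route by which cytokines induce both genes. They run from 250 bases before to 50 bases after the annotated start and come from RefSeq on GRCm38.p6, the mm10 build of the deposited files, at chr9:107296409-107296708 (plus strand) and chr11:117969317-117969616 (minus strand). Capitals mark matches to the STAT motif TTCNNNGAA.
Cish: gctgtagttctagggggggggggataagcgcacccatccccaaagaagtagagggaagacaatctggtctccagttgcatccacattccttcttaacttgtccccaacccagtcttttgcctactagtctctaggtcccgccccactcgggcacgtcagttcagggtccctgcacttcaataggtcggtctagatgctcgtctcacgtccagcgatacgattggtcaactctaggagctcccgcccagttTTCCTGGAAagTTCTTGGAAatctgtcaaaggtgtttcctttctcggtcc
Socs3: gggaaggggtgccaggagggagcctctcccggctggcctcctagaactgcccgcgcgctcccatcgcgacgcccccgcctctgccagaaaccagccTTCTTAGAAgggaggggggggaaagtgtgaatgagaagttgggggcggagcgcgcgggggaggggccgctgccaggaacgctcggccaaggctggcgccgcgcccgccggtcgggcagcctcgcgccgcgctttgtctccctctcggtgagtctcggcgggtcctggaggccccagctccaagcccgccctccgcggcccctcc

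The Cish window held 2 matches, 1 that begins at the annotated start base and 1 that begins 11 bases after it, and the Socs3 window held 1, which begins 154 bases before the start. TTCNNNGAA occurred on either strand in 8.29% of the 32817 promoter windows of this length. The other motifs searched on both strands were the STAT motif with a spacer 1 base longer (6.94% of windows), the NBRE AAAGGTCA that Nur77 binds as a monomer (1.51%), AP-1 TGANTCA (7.81%), CRE TGACGTCA (1.79%) and the kappaB site (4.50%). None of these 5 was in the Cish or Socs3 window, and the windows of Socs1 and Socs4 held none of the 6 motifs. The windows were 53.3% G and C for Cish, 73.3% for Socs3, 63.3% for Socs1 and 70.7% for Socs4, against a median of 52.7% over all windows. RefSeq promoter windows for Socs2, Socs5, Socs6 and Socs7 were not used here.

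The HA libraries were the shallowest, with 6.41 to 18.2 M mapped tags. Pol II libraries held 11.9 to 23.1 M, H3K27ac libraries 22.3 to 28.4 M and input libraries 14.0 to 23.4 M. HA replicate 3 stood apart in both conditions, with fragment lengths of 342 bp untreated and 426 bp after LPS against 826 to 1016 bp in the other 4 HA libraries. Untreated Nur77 Pol II replicate 1 had a fragment length of 1550 bp, against 174 to 318 bp in the other 7 Pol II libraries, and the fewest peaks of the 8 (27137). Of the 67 SOCS regions, 6 lay over a region called in an input library, with at most 8.71 input tags, and 61 lay over none. Pol II peaks were called in all 8 libraries at 7 of 8 macrophage genes, Mertk having peaks in 4 libraries. Of 19 genes of other cell types, 12 had no peak in any library, and Cd3d, Cd4, Cd79a, S100a8 and Cdh5 had one in all 8. Whether reads of the transgene map to Nr4a1 was not tested. At Nr4a1, Pol II averaged 13.2 ± 2.20 in untreated Nur77 cells and 27.1 ± 11.3 in untreated GFP cells (SD, n = 2 each), which did not pass the test (adjusted p = 0.51). H3K27ac there was higher after LPS in Nur77 than in GFP cells, 28.4 ± 4.85 against 13.8 ± 7.48 scaled tags (SD, n = 2 each; log2 1.08 ± 0.32 SE, adjusted p = 0.021).

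Deposited tags are the authors' normalized tags (per 10 M mapped tags), added up over the peaks that a library has within a region, and scaled tags are these after scaling between libraries. Regions with a peak in all libraries of the target were tested with limma on log2(scaled tags + 1), and a change was called at a Benjamini-Hochberg adjusted p under 0.05 over all tested regions of the target. Of the 67 SOCS regions, 35 could be tested, 9 for HA, 9 for Pol II and 17 for H3K27ac, and the others are given as deposited tags with no test. Because a longer called stretch holds more tags, changes are also given per kb of called peak where this ended, turned or added a call of a SOCS region. Changes are log2 differences with SE, and P-values are limma's, adjusted as above. The labels do not say whether replicates were separate cultures, so the tests cover the spread between these libraries.

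**Figure D1:**
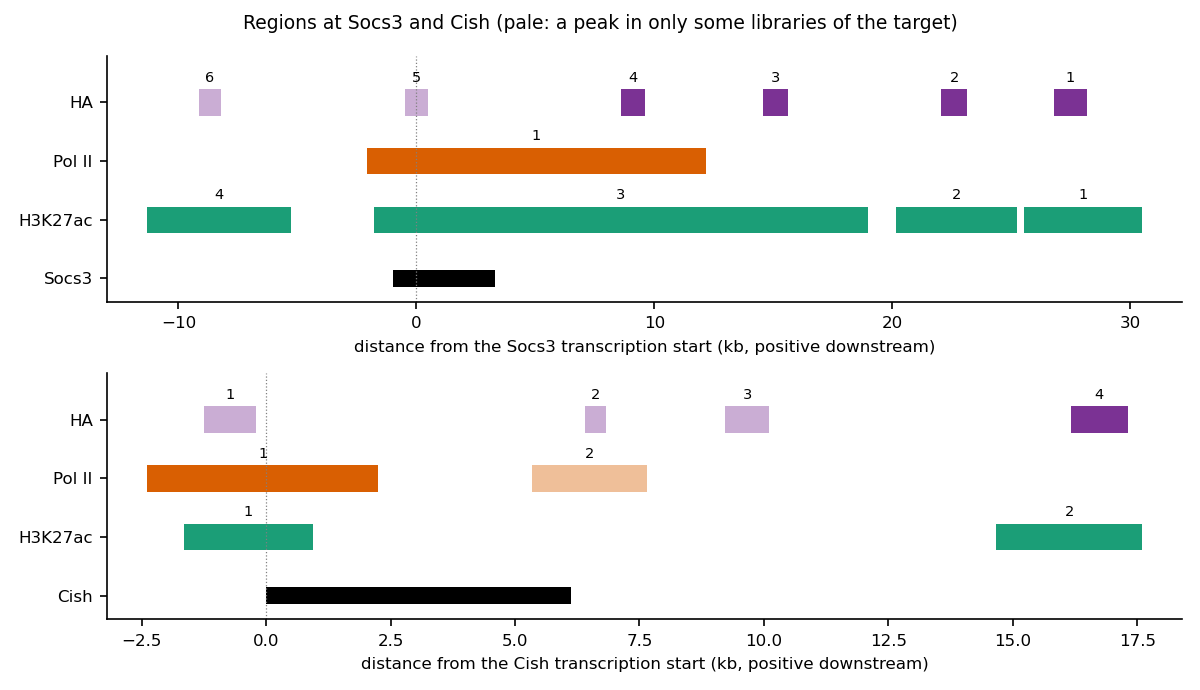
Regions assigned to Socs3 and Cish, drawn by target (rows) against distance from the transcription start site in kb, with the RefSeq gene span in black and region numbers on the bars. Pale bars had a peak in only some libraries of the target. HA regions lie from 27.5 kb downstream to 8.67 kb upstream of the Socs3 start and from 0.726 kb upstream to 16.7 kb downstream of the Cish start.

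Within 1 h of LPS, a Pol II rise passed the test at Cish and Socs5 in both lines. It also passed at Socs3 in Nur77 cells and at Socs1 in GFP cells. With the replicate number as a block, Socs1, Socs2 and Socs3 passed in both lines as well. Per kb of called peak the rise at Socs5 was called in neither line. The 4 tested regions over Socs4, Socs6 and Socs7 did not pass the test in either line. In Nur77 cells 3 of 9 SOCS regions were higher and none lower, where 15.2% of all 17081 tested Pol II regions were higher and 15% lower. In GFP cells 3 of 9 were higher and none lower, where 10% of all were higher and 8.55% lower. The median LPS change of the 9 regions was 0.63 in Nur77 cells and 0.95 in GFP cells on the log2 scale, against 0.01 over all regions in both lines. With the replicate number as a block, 5 of 9 were higher in Nur77 cells (24.3% of all regions) and 5 of 9 in GFP cells (18.3% of all). Without scaling between libraries the median of all regions moved to -0.40 in Nur77 cells and -0.15 in GFP cells, and the calls over all regions to 1411 higher and 4669 lower in Nur77 cells, against 2601 and 2564 with it, and to 1300 higher and 1893 lower in GFP cells, against 1715 and 1461. The SOCS counts were again 3 higher and none lower in each line. Changes below are therefore relative to the bulk of the regions. Between the lines, no SOCS region differed in Pol II in untreated cells (0.17% of all did) or after LPS (1.52%), although 2056 and 3030 of all regions had an unadjusted p under 0.05. With the replicate block 2 of 9 differed after LPS, Socs3 higher and Socs1 lower in Nur77 cells (12.8% of all regions), and 0 of 9 in untreated cells (5.98%). No region of the whole table passed the test of the difference between the LPS effects (0% called; 465 of all regions had an unadjusted p under 0.05).

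**Figure D2:**
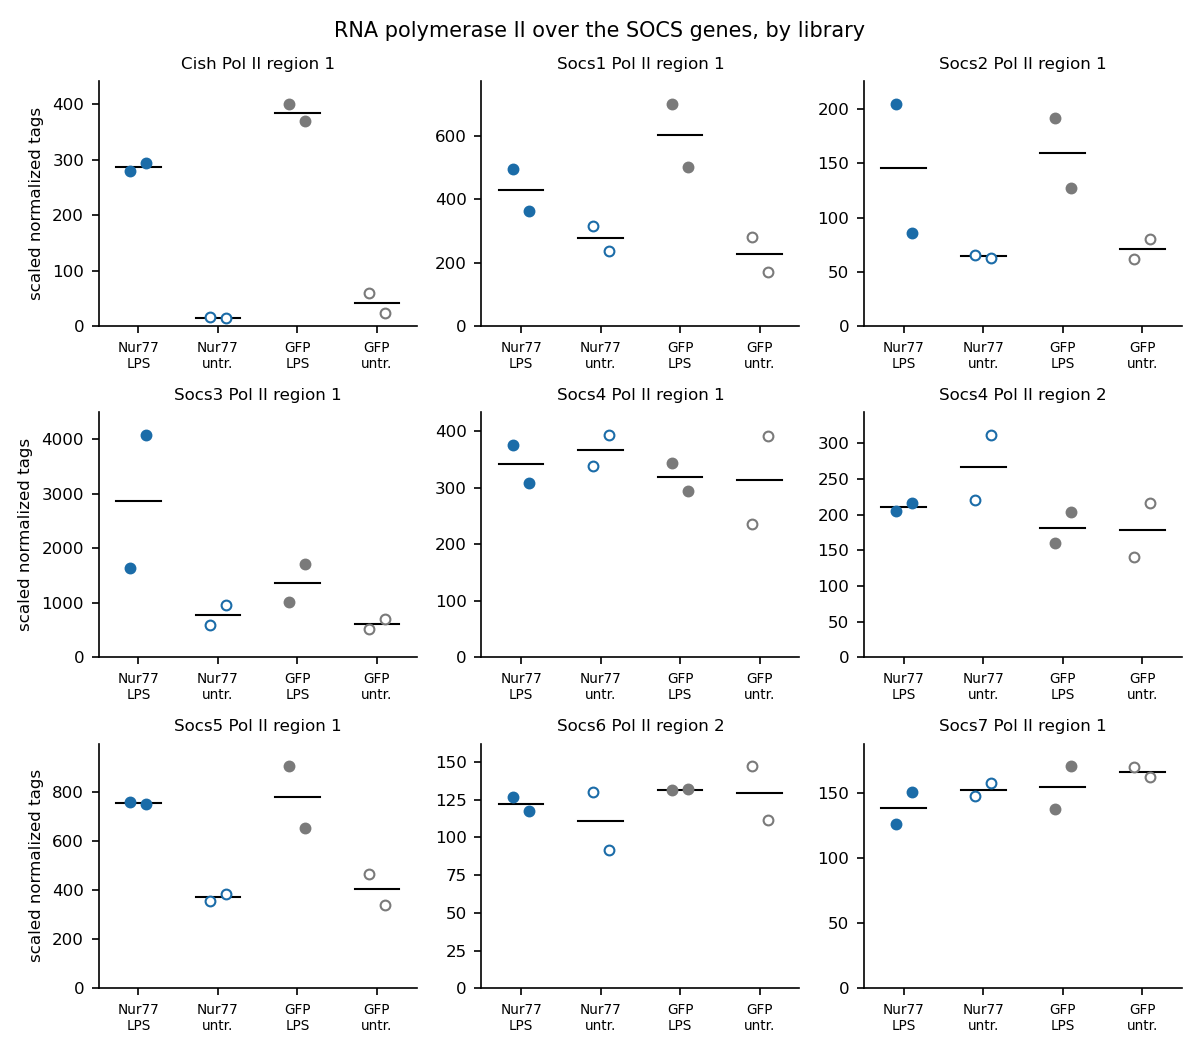
Pol II at the 9 tested SOCS regions, in scaled normalized tags on linear axes that start at 0, for Nur77 LPS, Nur77 untreated, GFP LPS and GFP untreated cells. Points are libraries (filled LPS, open untreated; 2 per group) and black lines their means. Cish sits above 270 after LPS and below 60 untreated in all libraries, while Socs4, Socs6 and Socs7 overlap between conditions apart from Socs4 region 2 in Nur77 cells.

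A larger share of regions was called with LPS for H3K27ac than for Pol II, in the family and over all regions. Over all regions it was 55.6% against 30.2% in Nur77 cells and 53% against 18.6% in GFP cells. The H3K27ac set also includes intergenic regions near a gene, which the Pol II set does not. After LPS, H3K27ac rose at 11 of 17 SOCS regions and fell at 1 in Nur77 cells, where 28.5% of all 27094 tested regions rose and 27.1% fell. It rose at 12 of 17 and fell at none in GFP cells, where 27.5% of all rose and 25.5% fell. The median change of the 17 regions was 0.50 in Nur77 cells and 0.78 in GFP cells, against 0.02 and 0.01 over all regions. Without scaling between libraries the median of all regions moved to -0.33 in Nur77 cells and -0.32 in GFP cells, and the SOCS counts became 7 higher and 5 lower in Nur77 cells (14.8% and 46.6% of all regions) and 11 higher and 4 lower in GFP cells (15% and 45.2% of all). Between untreated lines, 8 SOCS regions were higher in Nur77 than in GFP cells and 1 was lower (8 and 3 without scaling), where 15.4% of all were higher and 15.3% lower. After LPS, 5 were higher in Nur77 cells and 2 lower (3 and 2 without scaling), where 16.5% of all were higher and 19.5% lower. The LPS effect was smaller in Nur77 than in GFP cells at 1 of 17 and larger at none, where 0.476% of all were smaller and 0.118% larger.

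**Figure D3:**
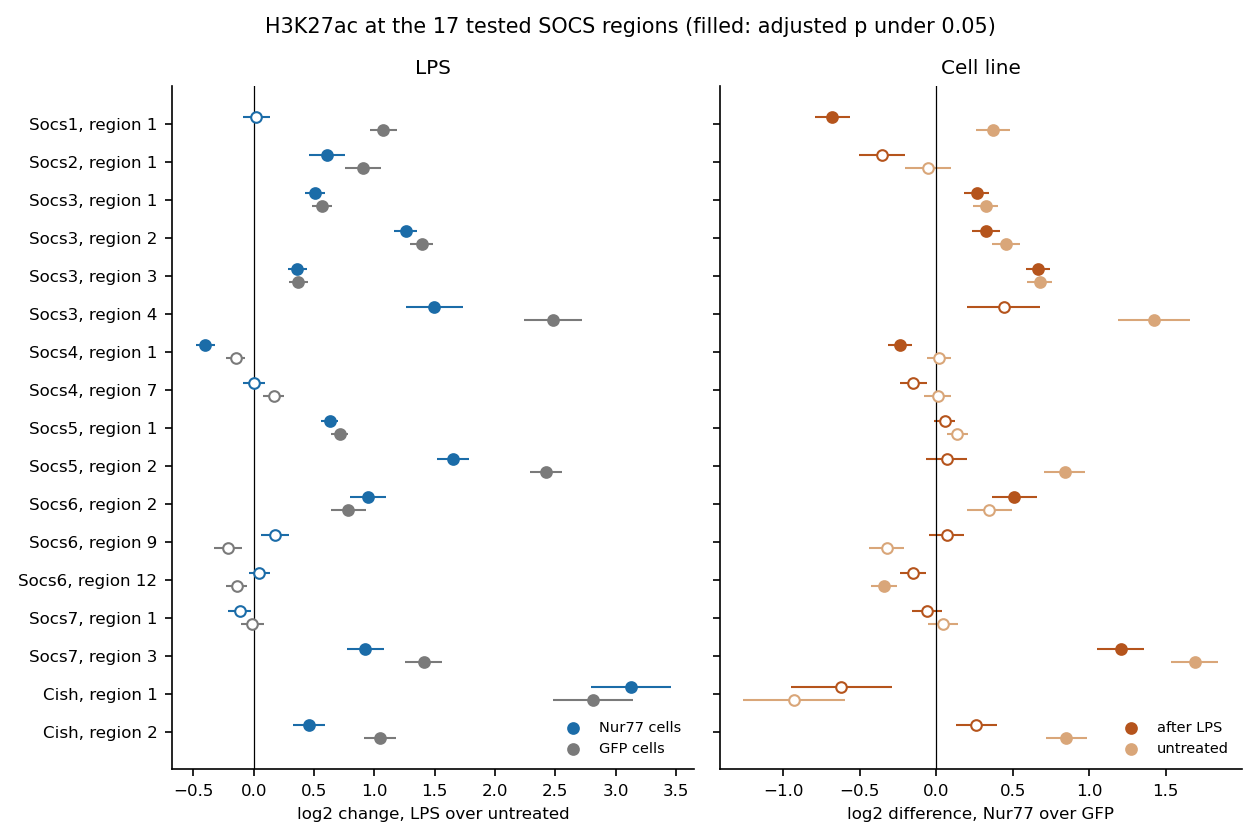
Log2 changes of H3K27ac at the 17 tested SOCS regions, with SE as bars and filled points for an adjusted p under 0.05. The left panel gives LPS against untreated in Nur77 (blue) and GFP cells (grey), and the right panel Nur77 against GFP after LPS (dark) and untreated (light). Cish region 1 has the largest LPS changes, 3.12 and 2.81, and Socs7 region 3 the largest differences between lines, 1.21 after LPS and 1.69 untreated.

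Cish, the founding member, whose protein docks on STAT5-binding sites of cytokine receptors, had the largest Pol II response of the family. Its Pol II region 1 (chr9:107294271-107298912, centred 0.068 kb upstream of the start and also over Gm17040) held 279 and 295 scaled tags in Nur77 LPS libraries, against 16 and 15.7 in untreated Nur77 libraries. In GFP cells it held 400 and 369 after LPS, against 59.4 and 24.6 untreated. All 4 LPS libraries were above all 4 untreated ones. The change was 17.1-fold in Nur77 cells (log2 4.09 ± 0.38 SE, adjusted p = 0.0004) and 9.79-fold in GFP cells (3.29 ± 0.38, adjusted p = 0.0013). The called stretch was also longer after LPS, 2.75 against 1.09 kb in Nur77 cells and 3.96 against 1.39 kb in GFP cells, and per kb the changes were 2.54 and 1.78, both called. The order of the 4 groups was GFP LPS, Nur77 LPS, GFP untreated and Nur77 untreated, and neighbouring lines did not differ in the test (adjusted p = 0.63 after LPS and 0.24 untreated). A second Pol II region, over the 3' end of the gene, had a peak in both GFP LPS libraries (29.3 and 53.0 deposited tags), in 1 Nur77 LPS library (20.8) and in no untreated library. A peak in both GFP LPS and no untreated GFP library was found in 4.33% of all Pol II regions.

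H3K27ac at the Cish start followed the same split by treatment. Region 1 (chr9:107295011-107297595) held 124 and 105 scaled tags in Nur77 LPS libraries against 7.2 and 20.3 in untreated ones, and 184 and 168 in GFP LPS libraries against 26.6 and 21.9 in untreated ones. It rose by 3.12 ± 0.33 in Nur77 cells (adjusted p = 8.5e-06) and 2.81 ± 0.33 in GFP cells (adjusted p = 2.2e-05). Both treated and untreated values were lower in Nur77 than in GFP cells, by -0.62 after LPS (adjusted p = 0.17) and -0.93 untreated (adjusted p = 0.052), and neither passed the test. When 1 library was left out the untreated difference ran from -1.61 without untreated Nur77 replicate 2, where it passed (adjusted p = 0.00043), to -0.24 without untreated Nur77 replicate 1 (adjusted p = 0.46), and the difference after LPS passed without untreated Nur77 replicate 1 (-0.62, adjusted p = 0.014) or 2 (-0.62, adjusted p = 0.018). Per kb both differences were called, at -0.45 after LPS and -0.48 untreated (adjusted p = 0.029 and 0.023).

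At Cish, HA peaks of regions 1 to 3 were called mainly after LPS, while region 4 had a peak in every library. HA region 1 (chr9:107295415-107296451, centred 0.726 kb upstream of the start) held 170, 131 and 60.3 deposited tags in the 3 LPS libraries, against 21.0 in untreated replicate 1 and no peak in the other 2 untreated libraries. HA region 3, 3088 bp past the gene, held 37.7, 40.7 and 12.3 tags after LPS and had no peak in untreated cells, a pattern of 4.62% of all HA regions. Of all 42505 HA regions, 1962 had this pattern and 278 the reverse. The LPS libraries were also deeper, with 6.90, 13.9 and 18.2 M tags against 6.41, 10.2 and 13.6 M untreated. The part of depth in these peak calls was not tested. HA region 2 had a peak of 9.59 tags in LPS replicate 3 only. Among the LPS libraries the lowest value at regions 1 and 3 stood in replicate 3, which has the short fragments. Its peak size was 427 bp, against 876 and 826 bp in LPS replicates 1 and 2. The part of fragment length and peak size in these values was not tested. HA region 4 (chr9:107312823-107313968, 10039 bp past the gene) was instead present throughout, at 131, 79.2 and 61.5 scaled tags after LPS and 105, 81.5 and 67.2 untreated (log2 0.05 ± 0.33, adjusted p = 0.95).

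The distal HA region 4 lay within Cish H3K27ac region 2 (chr9:107311329-107314256), which differed between the lines before LPS. It held 98.7 and 98.5 scaled tags in untreated Nur77 libraries, against 59.9 and 49.1 in untreated GFP libraries. The difference was 0.85 ± 0.13 (adjusted p = 0.0005) and was kept per kb (0.71, adjusted p = 0.0079). After LPS it held 127 and 145 in Nur77 cells and 122 and 105 in GFP cells (0.26, adjusted p = 0.15). LPS raised it by 0.46 ± 0.13 in Nur77 cells (adjusted p = 0.012) and 1.05 ± 0.13 in GFP cells (adjusted p = 4.1e-05), and per kb neither LPS change was called (0.01 and 0.37). Without scaling the Nur77 change was 0.10 (adjusted p = 0.55). The call in Nur77 cells was lost without untreated Nur77 replicate 1 (0.46, adjusted p = 0.054), untreated Nur77 replicate 2 (0.45, adjusted p = 0.06) or Nur77 LPS replicate 2 (0.35, adjusted p = 0.092).

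Socs3, which inhibits JAKs bound to the gp130 chain of the interleukin-6 receptor, held the most Pol II tags of the 9 tested regions in each group's mean and 6 HA regions, the most of the 8 genes. Pol II region 1 (chr11:117957207-117971433) covers the gene and 8.87 kb beyond its 3' end. It held 1642 and 4086 scaled tags in Nur77 LPS libraries, against 590 and 961 in untreated Nur77 libraries, and 1022 and 1716 in GFP LPS libraries, against 520 and 704 in untreated GFP libraries. In each line both LPS libraries were above both untreated ones, and the 2 Nur77 LPS libraries differed more from each other than any other pair. The rise in Nur77 cells was 1.78 ± 0.45 (adjusted p = 0.021; 1.40 per kb, adjusted p = 0.011). With a peak required in every library of only 1 group it lost its call (1.78, adjusted p = 0.053). Without untreated Nur77 replicate 1, the library with the long fragment length, it was 1.41 (adjusted p = 0.12) and without Nur77 LPS replicate 2 it was 1.13 (adjusted p = 0.092). In GFP cells the change was 1.13 ± 0.45 and did not pass the test (adjusted p = 0.13), but it passed with the replicate block (adjusted p = 0.0026).

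After LPS, Socs3 Pol II averaged 2864 ± 1728 in Nur77 cells and 1369 ± 491 in GFP cells (SD, n = 2 each). The difference of 0.97 ± 0.45 did not pass the test (adjusted p = 0.32) and passed with the replicate block (adjusted p = 0.017). When 1 library was left out it ran from 0.31 without Nur77 LPS replicate 2 to 1.63 without Nur77 LPS replicate 1, and passed in no such fit. The order of the groups was Nur77 LPS, GFP LPS, Nur77 untreated and GFP untreated. The 2 lines overlapped in both conditions, and the test of the difference between their LPS effects gave 0.65 ± 0.64 (adjusted p = 1).

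**Figure D4:**
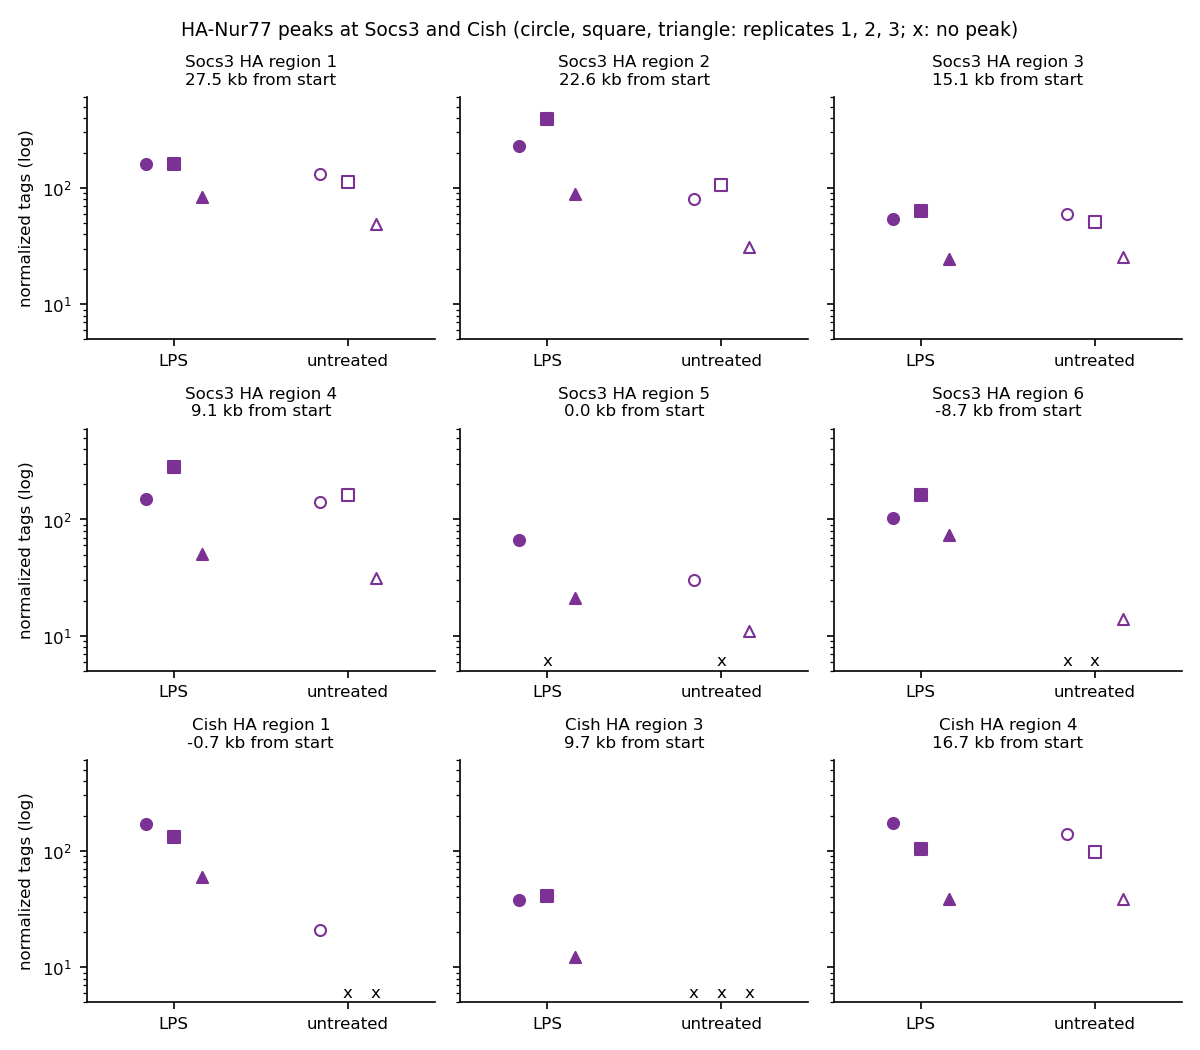
Deposited HA tags per library (log axis) at the 6 HA regions of Socs3 and at Cish regions 1, 3 and 4, for Nur77 LPS and Nur77 untreated cells. Circles, squares and triangles are replicates 1, 2 and 3, and a cross marks a library with no peak. At Socs3 region 2 the LPS libraries hold 231, 391 and 89.1 tags against 80.3, 106 and 31.4 untreated, and each LPS library is above the untreated one of its number.

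Of the 9 tested HA regions of the family, 1 rose with LPS and none fell, where 3.28% of all 11234 tested HA regions rose and 1.35% fell. With the replicate block 4 of 9 rose, where 20.4% of all did. The median of the 9 was 0.43, against -0.01 over all regions. The region that rose was Socs3 HA region 2 (chr11:117946209-117947298), 22.6 kb downstream of the start and 18781 bp past the gene. It held 173, 299 and 143 scaled tags after LPS, against 60.5, 87.6 and 54.9 untreated, so that the groups did not overlap. The change was 2.91-fold (log2 1.54 ± 0.33, adjusted p = 0.031; 2.6e-12 with the replicate block). The call was lost without untreated replicate 1 (1.46, adjusted p = 0.15), untreated replicate 3 (1.40, adjusted p = 0.11), LPS replicate 1 (1.64, adjusted p = 0.12) and both replicate 3 libraries (1.61, adjusted p = 0.17), and with no scaling between libraries (1.62, adjusted p = 1).

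None of the 3 other tested HA regions of Socs3 passed the test without the block, and regions 5 and 6 could not be tested. Region 1, 27.5 kb downstream, held 121, 122 and 135 scaled tags after LPS and 98.8, 92.1 and 85.9 untreated (0.45 ± 0.24, adjusted p = 0.34; 0.008 with the block). Region 4, 9.12 kb downstream and inside the Pol II region, held 113, 215 and 81.7 after LPS and 107, 134 and 54.9 untreated (0.44 ± 0.42, adjusted p = 0.61; 0.011 with the block). The groups were separate at region 1 and overlapped at region 4. Region 3, 15.1 kb downstream, did not pass the test (-0.04 ± 0.25, adjusted p = 0.95). Region 5, over the promoter printed above, had peaks of 66.7 and 21.1 deposited tags in LPS replicates 1 and 3 and of 30.4 and 11.1 in the same untreated replicates. Region 6, 8.67 kb upstream, held 103, 162 and 73.4 tags after LPS, against 14.0 in untreated replicate 3 and no peak in the other 2.

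The 4 H3K27ac regions around Socs3 rose with LPS in both lines and were higher in Nur77 than in GFP cells before LPS. Region 2, which contains HA region 2, held 756 and 813 scaled tags in Nur77 LPS libraries against 326 and 328 untreated, and 698 and 562 in GFP LPS libraries against 244 and 233 untreated. Its LPS change was 1.26 ± 0.09 in Nur77 cells (adjusted p = 4.1e-07) and 1.39 ± 0.09 in GFP cells (adjusted p = 2e-07). Region 4, which contains the upstream HA region 6, held 100 and 162 in Nur77 LPS libraries against 39.4 and 50.2 untreated, and 109 and 80.4 in GFP LPS libraries against 14.6 and 17.5 untreated. Its LPS change was 1.50 ± 0.24 in Nur77 cells (adjusted p = 0.00021) and 2.48 ± 0.24 in GFP cells (adjusted p = 4e-06), and the 2 LPS changes did not differ in the test (-0.98 ± 0.34, adjusted p = 0.24). Regions 1 and 3 rose less, by 0.50 and 0.36 in Nur77 cells and 0.56 and 0.37 in GFP cells, and per kb their changes fell below the threshold in Nur77 cells (0.21 and 0.06), as did that of region 3 in GFP cells (0.20). Without scaling neither kept its call in Nur77 cells (0.15 at region 1, adjusted p = 0.19), nor did region 3 in GFP cells (0.04, adjusted p = 0.76).

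The excess in untreated Nur77 over untreated GFP cells was 0.32, 0.46, 0.68 and 1.42 at Socs3 H3K27ac regions 1 to 4 (adjusted p = 0.011, 0.0027, 6.5e-05 and 0.00078). The called stretches were longer in Nur77 cells, for example 17.2 against 13.3 kb at region 3, which covers the gene. Per kb none of the 4 differences was called, and that of region 1 turned to -0.10. At region 1 the call was also lost without untreated GFP replicate 2 (0.23, adjusted p = 0.11) or untreated Nur77 replicate 2 (0.28, adjusted p = 0.098). After LPS the excess was 0.26, 0.32 and 0.67 at regions 1 to 3 (adjusted p = 0.027, 0.017 and 6.5e-05) and 0.44 at region 4 (adjusted p = 0.17), and per kb again none was called, region 1 turning to -0.29.

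Some of the differences after LPS hung on the setting or on single libraries. Socs3 H3K27ac regions 1 and 2 lost their calls without scaling (0.21 and 0.27, adjusted p = 0.1 and 0.063). They also lost them with no trend (adjusted p = 0.097 and 0.091) and with a peak required in every library of only 1 group (adjusted p = 0.058 and 0.076). Socs3 H3K27ac region 1 lost its call without GFP LPS replicate 1 (0.28, adjusted p = 0.063), GFP LPS replicate 2 (0.22, adjusted p = 0.13) or Nur77 LPS replicate 2 (0.19, adjusted p = 0.15). Region 2 lost it without GFP LPS replicate 2 (0.14, adjusted p = 0.21) or Nur77 LPS replicate 2 (0.27, adjusted p = 0.11). At region 4 the difference ran from 0.09 without Nur77 LPS replicate 2 to 0.79 without Nur77 LPS replicate 1, where it gained a call (adjusted p = 0.032).

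**Figure D5:**
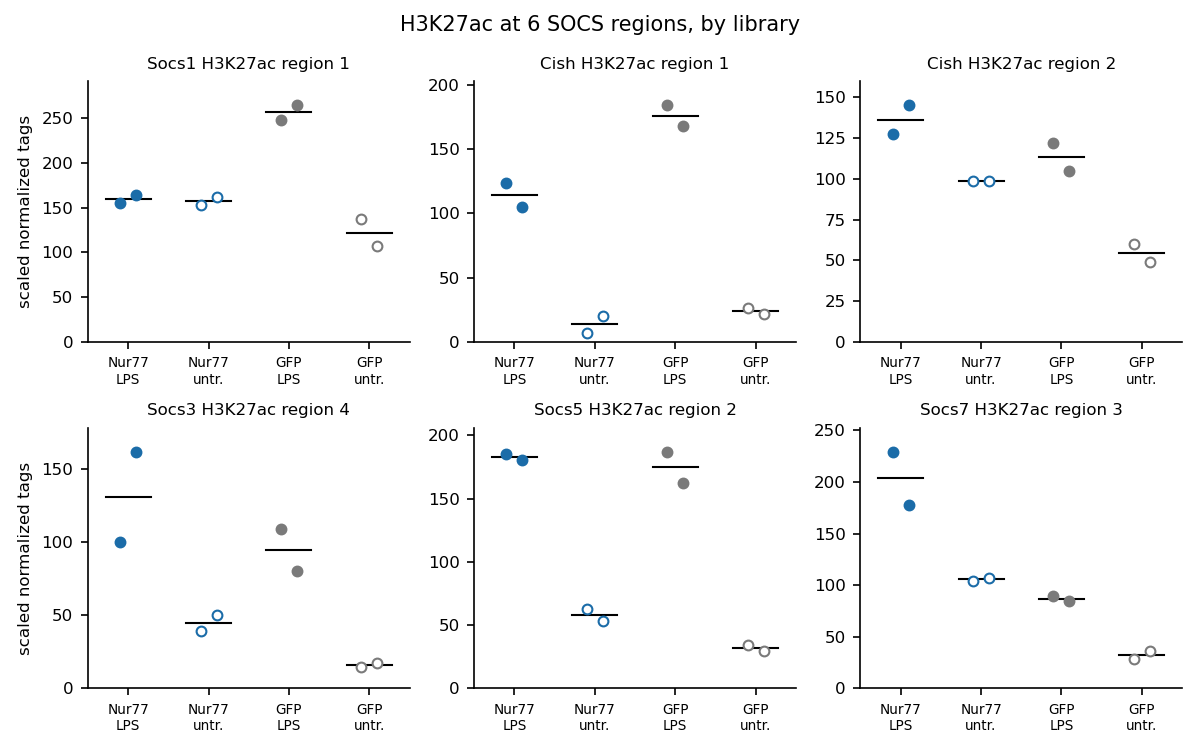
H3K27ac at 6 SOCS regions in scaled normalized tags (linear axes from 0), for Nur77 LPS, Nur77 untreated, GFP LPS and GFP untreated cells, with libraries as points (filled LPS, open untreated; 2 per group) and means as lines. At Socs1 region 1 the GFP LPS libraries (249 and 265) stand above the 3 other groups, which lie between 107 and 165.

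Socs1 is the strongest inhibitor of JAKs and of interferon signalling in macrophages. It held the only tested H3K27ac region of the family with a called difference between the LPS effects in the 2 lines. Regions near Socs3 and Socs5 also had smaller LPS effects in Nur77 cells, with no call in the main test. The Socs1 call was lost in several settings, given below. Socs1 H3K27ac region 1 (chr16:10784571-10786874), over the promoter, held 156 and 165 scaled tags in Nur77 LPS libraries, against 153 and 162 in untreated Nur77 libraries. In GFP cells it held 249 and 265 after LPS, against 137 and 107 untreated. It rose 2.1-fold in GFP cells (log2 1.07 ± 0.11, adjusted p = 8.9e-06), while the change in Nur77 cells was 0.02 ± 0.11 (adjusted p = 0.88). The LPS effect was smaller in Nur77 than in GFP cells by -1.05 ± 0.16 (adjusted p = 0.021). Nur77 cells were higher before LPS (0.37 ± 0.11, adjusted p = 0.026) and lower after it (-0.68 ± 0.11, adjusted p = 0.00069). The change in Nur77 cells turned to a called fall without scaling (-0.33, adjusted p = 0.021) and per kb (-0.28, adjusted p = 0.047).

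The difference between the LPS effects at Socs1 kept its size and lost its call in several settings. It was -1.03 per kb (adjusted p = 0.19) and -1.05 with no trend in the prior variance (adjusted p = 0.2). It was -0.87 without untreated GFP replicate 2 (adjusted p = 0.09), -1.09 without GFP LPS replicate 1 (adjusted p = 0.074), -1.09 without untreated Nur77 replicate 1 (adjusted p = 0.082), -1.01 without untreated Nur77 replicate 2 (adjusted p = 0.14) and -1.01 without Nur77 LPS replicate 1 (adjusted p = 0.06). The untreated difference lost its call without untreated GFP replicate 2 (0.19, adjusted p = 0.24), untreated Nur77 replicate 1 (0.42, adjusted p = 0.071) or untreated Nur77 replicate 2 (0.33, adjusted p = 0.15).

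Pol II over Socs1 (region 1, chr16:10781345-10787499, also over Tnp2) held 495 and 363 scaled tags in Nur77 LPS libraries against 317 and 236 in untreated ones, and 700 and 502 in GFP LPS libraries against 282 and 171 in untreated ones. The change was 0.63 ± 0.30 in Nur77 cells (adjusted p = 0.15; 0.0044 with the replicate block) and 1.43 ± 0.30 in GFP cells (adjusted p = 0.015). The difference between the lines after LPS was -0.48 (adjusted p = 0.46; 0.045 with the block), and the LPS effects did not differ in the test (-0.80 ± 0.43, adjusted p = 1). In GFP cells the called stretch was 4.55 kb after LPS against 2.11 kb untreated, and per kb the change was 0.37 (adjusted p = 0.48). The GFP call was also lost without untreated GFP replicate 2 (1.07, adjusted p = 0.078) or GFP LPS replicate 1 (1.20, adjusted p = 0.092). HA at the Socs1 promoter was weak and patchy, with peaks of 33.4 and 21.9 deposited tags in LPS replicates 1 and 3 and of 29.6 in untreated replicate 1.

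Socs2, known as a brake on growth hormone receptor signalling, carried all 3 targets at one place inside its span, where Pol II region 1 is at chr10:95387987-95390460. H3K27ac region 1 rose with LPS in both lines, with 65.9 and 76.6 scaled tags in Nur77 LPS libraries against 48.2 and 44.6 untreated (0.61 ± 0.15, adjusted p = 0.0045) and 98.4 and 84.2 in GFP LPS libraries against 47.1 and 49.3 untreated (0.90 ± 0.15, adjusted p = 0.00031). Without scaling the Nur77 change was 0.25 (adjusted p = 0.21). Pol II region 1 held 205 and 86.2 in Nur77 LPS libraries against 65.4 and 63.3 untreated, and 191 and 127 in GFP LPS libraries against 62.0 and 79.8 untreated. LPS libraries were above untreated ones in both lines. The changes of 1.04 and 1.14 did not pass the test (adjusted p = 0.095 and 0.098) and passed with the replicate block (0.036 and 0.033). When 1 library was left out the Nur77 change ran from 0.43 without Nur77 LPS replicate 1 (adjusted p = 0.45) to 1.66 without Nur77 LPS replicate 2, where it passed (adjusted p = 0.021), and the GFP change passed without Nur77 LPS replicate 1 (1.15, adjusted p = 0.04) or 2 (1.15, adjusted p = 0.037), whose removal changes the shared spread. HA region 1 held 47.3, 37.4 and 49.2 after LPS and 26.5, 26.8 and 36.7 untreated (0.56 ± 0.26, adjusted p = 0.25; 0.016 with the block). The regions of all 3 targets lay over an input region of 8.71 tags in Nur77 LPS cells. HA region 2, shared with 5730420D15Rik, gave -0.24 ± 0.47 (adjusted p = 0.83), and Pol II region 2 at the same gene had peaks in 2 of 8 libraries.

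Socs5, whose protein has been studied as an inhibitor of interleukin-4 and epidermal growth factor receptor signalling, had a Pol II region of 18.2 kb (chr17:87101049-87119297, also over Gm30510). It held 758 and 751 scaled tags in Nur77 LPS libraries, against 356 and 385 in untreated ones, and 907 and 652 in GFP LPS libraries, against 466 and 340 in untreated ones. The rise was 1.02 ± 0.21 in Nur77 cells (adjusted p = 0.0097) and 0.95 ± 0.21 in GFP cells (adjusted p = 0.019). The called stretch was 16.3 kb after LPS against 10.2 kb untreated in Nur77 cells, and 17.1 against 11.4 kb in GFP cells. Per kb the changes were 0.06 and 0.37 and neither was called, so that the rise in tags went with a longer covered stretch. Without untreated Nur77 replicate 1, the library with the long fragment length, the Nur77 change was 0.95 (adjusted p = 0.063), and the GFP change was 0.72 (adjusted p = 0.11) without untreated GFP replicate 2 or GFP LPS replicate 1.

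At the Socs5 promoter, H3K27ac region 1 rose by 0.63 ± 0.07 in Nur77 cells (adjusted p = 1.1e-05) and 0.71 ± 0.07 in GFP cells (adjusted p = 4.3e-06). A distal region 11106 bp past the gene, H3K27ac region 2 (chr17:87148753-87151116), changed more. It held 186 and 180 scaled tags in Nur77 LPS libraries against 62.4 and 53.0 untreated, and 187 and 163 in GFP LPS libraries against 33.9 and 29.6 untreated. The rise was 3.14-fold in Nur77 cells (1.65 ± 0.13, adjusted p = 8.9e-07) and 5.37-fold in GFP cells (2.42 ± 0.13, adjusted p = 4.6e-08). Untreated Nur77 cells were above untreated GFP cells by 0.84 ± 0.13 (adjusted p = 0.00052; 0.43 per kb, adjusted p = 0.019), whereas after LPS the lines overlapped (0.07, adjusted p = 0.73). The difference between the LPS effects, -0.77 ± 0.19, did not pass the test (adjusted p = 0.1). It passed with a peak required in every library of only 1 group (adjusted p = 0.046). HA region 3 lay inside this region, with 48.6, 73.0 and 19.7 deposited tags after LPS against 21.0 and 35.4 in untreated replicates 1 and 2 and no peak in the third. HA region 1 at the promoter gave 0.43 ± 0.28 (adjusted p = 0.43), and HA region 2, inside the gene, had peaks in LPS replicates 1 and 3 only (37.0 and 9.04 tags). H3K27ac region 3 of Socs5 had peaks of at least 10.2 deposited tags in 4 of 8 libraries.

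Socs4, Socs6 and Socs7 gave no called Pol II change. The changes of their 4 regions ranged from -0.32 to 0.16 in Nur77 cells and from -0.11 to 0.07 in GFP cells. Adjusted p ran from 0.41 to 0.94. These members are better known from growth factor and insulin signalling than from cytokine induction, and a link to the Pol II values was not tested. For Socs7 the values were 126 and 151 scaled tags in Nur77 LPS libraries against 147 and 158 untreated, and 138 and 171 in GFP LPS libraries against 170 and 162 untreated. For Socs6 (region 2) they were 127 and 118 in Nur77 LPS libraries against 130 and 91.4 untreated, and 131 and 132 in GFP LPS libraries against 147 and 112 untreated. Socs4 Pol II region 1 is shared with the divergent neighbour Wdhd1 and region 2 with Mapk1ip1l. Socs6 Pol II region 1 had peaks of 8.27 to 29.9 deposited tags in 7 of 8 libraries.

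Scaled Pol II tags per kb of called peak can be set side by side as densities of these regions, not as levels of the genes. The called stretches differ in length, and the regions of Socs4, Socs1, Socs5 and Cish also cover another gene. In untreated cells the 4 libraries ran from 81.5 to 94.9 for Socs4 (region 1), from 83.7 to 130 for Socs1, from 53.3 to 73.1 for Socs6, from 50.5 to 76.7 for Socs3, from 42.1 to 67.6 for Socs7, from 27.7 to 53.7 for Socs2, from 31.1 to 44.6 for Socs5 and from 13.6 to 39.8 for Cish. Cish was below Socs1, Socs3, Socs4, Socs6 and Socs7 in every untreated library and overlapped Socs2 and Socs5. After LPS Cish held 90.7 to 123 per kb, which overlapped Socs1 (94.4 to 189), Socs3 (112 to 288) and Socs2 (50.5 to 106) and was above Socs4 region 1 (54.9 to 82.6), Socs7 (49.8 to 58.4), Socs5 (41.0 to 50.7) and Socs6 (48.2 to 67.1).

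At the Socs4 promoter, shared with Wdhd1, H3K27ac fell in Nur77 cells. Region 1 (chr14:47273841-47279290) held 218 and 242 scaled tags in Nur77 LPS libraries against 292 and 317 untreated (-0.40 ± 0.08, adjusted p = 0.00096), and 270 and 273 in GFP LPS libraries against 303 and 298 untreated (-0.15 ± 0.08, adjusted p = 0.13). The called stretch was also shorter, 3.83 against 5.07 kb in Nur77 cells, and per kb the change was -0.19 (adjusted p = 0.24). The 2 LPS effects did not differ in the test (-0.25 ± 0.11, adjusted p = 0.36). After LPS the region was lower in Nur77 than in GFP cells by -0.24 ± 0.08 (adjusted p = 0.033), and this call was lost per kb (-0.32, adjusted p = 0.091) and without GFP LPS replicate 1 (-0.24, adjusted p = 0.089), GFP LPS replicate 2 (-0.25, adjusted p = 0.074), untreated Nur77 replicate 2 (-0.23, adjusted p = 0.052) or Nur77 LPS replicate 1 (-0.16, adjusted p = 0.2). HA region 1 had 59.5, 32.0 and 24.1 deposited tags after LPS and 54.6 and 28.8 in untreated replicates 1 and 3. Region 7, shared with Mapk1ip1l, was not called in any comparison, but passed after LPS without Nur77 LPS replicate 2 (-0.29, adjusted p = 0.028). The 5 regions between them had peaks in 1 to 3 of 8 libraries, of 5.64 to 10.2 tags.

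Around Socs6 and Socs7 the H3K27ac changes called on scaled tags lay outside the genes. Socs7 H3K27ac region 3 (chr11:97400015-97402617), 1473 bp past the gene, held 229 and 177 scaled tags in Nur77 LPS libraries against 104 and 107 untreated, and 89.7 and 84.2 in GFP LPS libraries against 28.2 and 36.5 untreated. Every Nur77 library was above every GFP library. Nur77 cells exceeded GFP cells 2.31-fold after LPS (1.21 ± 0.15, adjusted p = 0.0001) and 3.23-fold untreated (1.69 ± 0.15, adjusted p = 1e-05), the largest differences between lines among the 17 regions, and both were kept per kb (1.03 and 1.20). LPS raised it by 0.92 ± 0.15 in Nur77 cells and 1.41 ± 0.15 in GFP cells (adjusted p = 0.00031 and 1.2e-05), and no HA region was assigned to Socs7. H3K27ac over the Socs7 promoter (region 1) gave -0.12 in Nur77 cells and -0.01 in GFP cells and was not called. It fell in both lines without scaling (-0.47 and -0.34, adjusted p = 0.0022 and 0.015), and per kb it fell in GFP cells (-0.30, adjusted p = 0.04) while Nur77 cells gave -0.19 (adjusted p = 0.17). Region 2 had a peak of 5.99 tags in 1 library.

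Socs6 H3K27ac region 2, 2384 bp from the gene, rose by 0.95 ± 0.15 in Nur77 cells (adjusted p = 0.00018) and 0.78 ± 0.15 in GFP cells (adjusted p = 0.00078). After LPS it was higher in Nur77 cells, 305 and 224 scaled tags against 198 and 170 in GFP cells (0.51 ± 0.15, adjusted p = 0.018), a call lost without GFP LPS replicate 2 (0.38, adjusted p = 0.15) or Nur77 LPS replicate 1 (0.30, adjusted p = 0.17). In untreated cells the difference was 0.35 (adjusted p = 0.096), and it passed without Nur77 LPS replicate 1 (0.35, adjusted p = 0.049) or 2 (0.35, adjusted p = 0.047). HA region 2 in the same place had peaks of 28.3 and 48.2 deposited tags in LPS replicates 1 and 2 and of 13.3 in untreated replicate 3. Region 12, 36037 bp away and over an input region of 7.85 and 8.1 tags, was lower in untreated Nur77 than in untreated GFP cells (183 and 187 against 224 and 245; -0.34 ± 0.08, adjusted p = 0.0093). That call was lost without untreated GFP replicate 2 (-0.28, adjusted p = 0.083), untreated Nur77 replicate 1 (-0.32, adjusted p = 0.069) or untreated Nur77 replicate 2 (-0.35, adjusted p = 0.052), and per kb (-0.13, adjusted p = 0.47). Regions 10 and 11 had peaks in both untreated GFP libraries (18.4 and 16.1 tags, and 6.14 and 6.33) and in no other, a pattern against GFP LPS of 4.06% of all H3K27ac regions. Region 9, over the Pol II region 2, was not called in any comparison. Its difference of untreated Nur77 from untreated GFP cells (-0.32, adjusted p = 0.053) passed without scaling (-0.36, adjusted p = 0.042), with a peak required in every library of only 1 group (adjusted p = 0.032), with regions over an input left out (adjusted p = 0.044), with no trend (adjusted p = 0.048) and without Nur77 LPS replicate 1 (adjusted p = 0.044) or 2 (adjusted p = 0.042), and per kb it was -0.12 (adjusted p = 0.58). Its LPS change in GFP cells passed without scaling (-0.54, adjusted p = 0.0018). The other 7 H3K27ac regions of Socs6 had peaks in 1 to 4 of 8 libraries, of 5.75 to 16.3 tags. HA region 5 was not called (-0.27 ± 0.25, adjusted p = 0.61), HA region 1 held 23.9, 38.1 and 10.4 deposited tags after LPS and 27.3 and 34.4 in untreated replicates 1 and 2, and HA regions 3 and 4 had peaks in 2 and 1 of 6 libraries, of 8.48 to 18.3 tags.

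Most HA regions of the family lay on chromatin marked by the other targets, as did most of all HA regions. Of the 22, 16 overlapped an H3K27ac region (72.7%, against 79.8% of all HA regions) and 18 a Pol II region (81.8%, against 65.5% of all). Overlap means at least 1 shared bp, and the 6 HA regions with no H3K27ac region were Cish regions 2 and 3, Socs2 region 2, Socs5 region 2 and Socs6 regions 3 and 4.

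Other genes of the JAK-STAT pathway were read through the region of each gene with the most tags. Of the cytokine ligands, 4 of 12 had a tested Pol II region and all 4 rose in both lines, where 15.2% of all regions rose in Nur77 cells and 10% in GFP cells. Among them were Lif, with 4.62 in Nur77 cells and 4.05 in GFP cells, and Csf3, the gene of granulocyte colony-stimulating factor, with 2.87 and 2.52. Il27, whose Pol II region also covers 6 other genes and lies over an input region, rose by 2.16 and 1.87. Of 16 receptor genes tested, 6 rose and 1 fell in Nur77 cells, and 5 rose and 1 fell in GFP cells, where 15% of all regions fell in Nur77 cells and 8.55% in GFP cells. Il2rg, the common gamma chain, rose by 2.40 in Nur77 cells and 2.21 in GFP cells. Ifnar2 and Il10rb share 1 Pol II region, which gave 2.09 in Nur77 cells and 2.08 in GFP cells. Of 10 JAK and STAT genes tested, 4 rose and 2 fell in Nur77 cells, and 6 rose and 1 fell in GFP cells. Of all regions 15.2% rose and 15% fell in Nur77 cells, and 10% rose and 8.55% fell in GFP cells. The share of genes that fell was near that of all regions. Genes that share a region, such as Stat5a with Stat5b or Ifnar2 with Il10rb, each count in these numbers. Tyk2 rose by 1.31 in Nur77 cells and 1.63 in GFP cells, Stat6 by 1.20 in Nur77 cells and Jak2 by 1.31 in GFP cells, while Jak3, over an input region, fell by 1.74 in Nur77 cells. The region shared by Stat5a and Stat5b, whose products are the STATs that induce Cish, rose by 1.47 in GFP cells, and after LPS it was lower in Nur77 than in GFP cells, with 97.8 ± 46.0 against 335 ± 3.02 scaled tags (SD, n = 2 each; -1.85 ± 0.33, adjusted p = 0.047). This call was lost, as were those of all Pol II regions between the lines after LPS, without GFP LPS replicate 2 or without any 1 of the 4 Nur77 libraries.

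Of 9 STAT target genes tested, 7 rose and none fell in each line, where 15.2% of all Pol II regions rose in Nur77 cells and 10% in GFP cells. Pim1, a survival kinase, rose by 2.93 in Nur77 cells and 2.76 in GFP cells, and Irf1, an interferon-responsive factor, by 2.15 and 3.46. Bcl6 rose by 2.29 in Nur77 cells and Junb by 1.48 in GFP cells. The median LPS change was 2.11 in Nur77 cells and 1.60 in GFP cells for the STAT targets, 2.52 and 2.20 for the ligands, 0.50 and 0.42 for the receptors and 0.25 and 1.12 for the JAKs and STATs. Of 11 other inhibitors, such as the PIAS proteins and tyrosine phosphatases, 1 rose and 1 fell in Nur77 cells, Ptprc by 1.08 and Pias3, over an input region, by -1.51, and none passed in GFP cells. The 4 SOCS box partners gave no call in Pol II in either line. In HA, 1 of 4 ligands and 1 of 9 receptors tested rose with LPS and 1 of 7 other inhibitors fell. None of 6 JAK and STAT genes, 5 STAT targets and 1 SOCS box partner was called. Of all HA regions 3.28% rose and 1.35% fell. The regions of Il10rb (1.25 ± 0.26, adjusted p = 0.027) and near Il27 (1.13 ± 0.28, adjusted p = 0.048) rose. That of Pias1, over an input region, fell (-1.23 ± 0.30, adjusted p = 0.047). These 3 calls were lost, as were those of all HA regions, without untreated replicate 1 or without LPS replicate 1, and 6 of 11234 regions were called without scaling. The LPS effect on H3K27ac was smaller in Nur77 than in GFP cells at Irf1 (-1.07 ± 0.12, adjusted p = 0.0083), Tyk2 (-0.67 ± 0.09, adjusted p = 0.013), Stat5a (-1.24 ± 0.17, adjusted p = 0.015) and Sh2b3 (-0.52 ± 0.09, adjusted p = 0.038), a direction shared with Socs1, where 0.476% of all regions were called lower. These 4 calls were lost per kb and with no trend in the prior variance, as were all others of this difference.

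Likeness to the Pol II profile of a member was measured over the 8 Pol II libraries and 10960 lead regions as the root mean square difference of centred log2 tags. Closest to Cish were the region of Bcl2a1a (0.26), that of Slfn2 (0.38) and that of Mov10 (0.43), followed by Cd44 (0.44) and Clec4d with Clec4e (0.47). Closest to Socs3 were Gm11787 (0.18), Etv3 (0.21), Znhit3 (0.23), Prrg4 (0.23) and Fgd3 (0.25). Closest to Socs5 were the region of Eaf2 and Iqcb1 (0.07), Gm5544 (0.08), Metrnl (0.10), and the regions of Grpel2 (0.10) and Agpat1 (0.10). The measure describes these 8 libraries, and several of these regions cover more than 1 gene.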

How the data were processed

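The 26 deposited peak lists, 22 of ChIP and 4 of input, were the starting point. Alignment was to mm10 by HISAT2 2.1.0 and peak calling by HOMER, per the submitters' processing notes; the HOMER version is not given in the sources used here. HA chromatin was fixed with 2 mM DSG and 1% formaldehyde and the other targets with formaldehyde alone, per the labels' protocols. Factor peaks (HA) had an FDR of 0.001 and 4-fold enrichment over the surrounding 10 kb as thresholds, per the file headers. The headers give a Poisson threshold of 0.001 for the broad Pol II and H3K27ac regions and name no input. They leave the local filter on in 3 of 8 H3K27ac libraries, all of them replicate 1 (Nur77 untreated and both GFP groups), and for untreated HA replicate 3 they name a tag set without the filter mark.

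The signal used is the deposited normalized tag count, per 10 M mapped tags. The deposited score, focus ratio (a fraction), local and clonal fold changes (each a ratio) and local p-value were not used for tests. Since the normalized tags are not whole, the test planned for counts gave way to limma 3.58.1 (R 4.3.3). Tables and figures used Python 3.11.15, pandas 2.3.3, numpy 2.4.6 and matplotlib 3.10.9. Columns of other samples not used numbered 0.

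Overlapping peaks of a target (1 bp) were merged and tags added per library. Scaling used trimmed means of M-values, after removal of 30% by M and 5% by A, over regions with a peak in every library. Limma with a trend and no block was fitted on log2(value + 1) over the whole table of each target, so that the groups of 2 share 1 estimate of spread. P-values were adjusted by Benjamini-Hochberg per comparison, with an FDR of 0.05. The code was tested on simulated data.

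Same-numbered libraries deviated together in HA (r of 0.481, 0.834 and 0.695 across regions) and in Pol II (0.347 to 0.631), so the value with the replicate number as a block is given where it changes a call. They did not in H3K27ac (-0.102 to 0.0885).

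The members and the pathway lists were chosen with earlier results of these data known, so no count over them is independent support. Every region of the 8 genes is accounted for. Named from each pathway list were at most 3 called genes with the smallest p, and from the likeness ranking the 5 regions closest to Cish, Socs3 and Socs5. Alternatives were no scaling, a pseudocount of 10, a wider filter, peaks of at least 20 tags, tags per kb, merging on 200 bp, leaving out regions over input, no trend, the replicate block and leaving out each library. Promoter sequences are from RefSeq GRCm38.p6, matched by symbol for 4 of 8 members.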

Additional observations from a re-analysis of the deposited data

Results flagged for a closer look

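The LPS effect on H3K27ac at Socs1 region 1 was smaller in Nur77 than in GFP cells by -1.05 on the log2 scale (adjusted p = 0.021), the only one of the 17 tested H3K27ac regions of the family where the lines differed in this test. In scaled tags, the libraries of 2 regions moved in opposite directions in the lines, a pattern that did not hold without scaling between libraries. The share of all regions with this pattern was not counted, so these 2 are described only and are no result about the family. At Socs6 H3K27ac region 9 both Nur77 LPS libraries (96.6 and 85.6 scaled tags) were above both untreated Nur77 libraries (82.7 and 77.7), while both GFP LPS libraries (88.4 and 85.0) were below both untreated GFP libraries (101 and 100.3). The difference between the LPS effects, 0.392, did not pass the test (adjusted p = 0.34). The LPS changes were -0.18 in Nur77 cells and -0.54 in GFP cells without scaling, and -0.004 and -0.07 per kb. At Socs6 H3K27ac region 12 the Nur77 libraries held 189 and 192 after LPS against 183 and 187 untreated, and the GFP libraries 223 and 202 against 224 and 245. That difference, 0.189, did not pass either (adjusted p = 0.56), and without scaling the region fell in both lines (-0.31 in Nur77 cells, adjusted p = 0.016, and -0.48 in GFP cells, adjusted p = 0.0012).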

How the results depend on the processing

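Of 48 called values of SOCS regions, 24 kept their call under every alternative run, and of 91 uncalled values 67 were never called. Merging on 200 bp changed no call and a pseudocount of 10 changed 1. For HA, 1 of 9 regions was called, where 4.64% of all were. The count was 0 of 9 without scaling (0.0534% of all) and 0 of 8 with peaks of at least 20 tags (3.15%). It was 0 of 11 without both replicate 3 libraries (0.00812%) and 3 of 15 with a peak required in every library of only 1 group (14.9%). The replicate block gave 4 of 9 (40.4%), and leaving out 1 library gave 0 to 1 (0 to 5.36%). The 3 regions under the wider filter included Cish HA regions 1 and 3. Both entered through the LPS group alone, with missing untreated values set to 0. Their calls largely follow from that filter, and their fitted change depends on the pseudocount. For Pol II after LPS in Nur77 cells, 3 of 9 were called, where 30.2% of all regions were. The replicate block gave 5 of 9 (47.9% of all), the wider filter 2 of 11 (23.5%) and tags per kb 2 of 9 (12.2%). In GFP cells 3 of 9 were called (18.6% of all), tags per kb gave 1 of 9 (7.17%) and the replicate block 5 of 9 (35.5%). For Pol II between lines after LPS (0 called; 3030 of all regions at an unadjusted p under 0.05), the replicate block gave 2 of 9, Socs3 higher and Socs1 lower (12.8% of all regions). For H3K27ac between untreated lines, 9 of 17 were called, where 30.8% of all regions were. Tags per kb gave 5 (14.2% of all) and the replicate block 10 (30.8%), where the numbers did not pair the samples. Between lines after LPS 7 of 17 were called (36% of all), tags per kb gave 4 (16.8%) and no trend 3 (30.3%). With no trend, untreated differences lost their call at Socs1 region 1 (adjusted p = 0.087) and Socs3 region 1 (adjusted p = 0.062). Those after LPS lost it at Socs4 region 1 (adjusted p = 0.099) and Socs6 region 2 (adjusted p = 0.081). The Socs6 region also lost it under the wider filter (adjusted p = 0.095), as did untreated Socs1 (adjusted p = 0.081). For the difference between LPS effects on H3K27ac (1 called), the wider filter gave 4, tags per kb 0 and no trend 0. The 4 were Socs1 region 1, Socs5 region 2 and Socs6 regions 10 and 11. The 2 Socs6 regions entered only through untreated GFP cells, with missing values set to 0, so their calls largely follow from the filter. Changes without 1 library are given with their regions above where they moved a call. The LPS change in Nur77 cells turned without scaling to -0.33 at Socs1 H3K27ac region 1, -0.35 at Socs4 H3K27ac region 7 and -0.31 at Socs6 H3K27ac region 12, where the median of all regions moved by a similar amount, and per kb to -0.28 at Socs1 H3K27ac region 1. Per kb, Nur77 over GFP at Socs3 H3K27ac region 1 turned to -0.10 untreated and -0.29 after LPS. The cause of these changes was not tested. A peak in every library of the target was found at 9 of 22 HA regions of the family, against 11234 of all 42505. For H3K27ac it was 17 of 33, against 27094 of 77715, and for Pol II 9 of 12, against 17081 of 46133. Depth was lowest in HA, and its part in these counts was not tested.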
